A study of Mus musculus with 30 samples.

Results

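The myogenic regulatory factors Myod1, Myf5, Myog and Myf6 were followed across 10 groups of cells that differed in construct and time. Every probe set that the platform annotation gave to these symbols was taken, which was 5 probe sets for the 4 genes, out of 45037 probe sets and 18193 genes tested. Myod1 (NCBI gene 17927) has 2 of them, a bright and a dim one, and Myf5 (17877), Myog (17928) and Myf6 (17878) have 1 each. The samples were 30 mouse arrays, 3 for each group. All cells were mouse embryonic fibroblasts from animals without MyoD and Myf5 (MyoD-/-/Myf5-/-), and all had been transduced with a retrovirus and kept in differentiation medium with beta-estradiol, except that time 0 h precedes it. The retrovirus carried a fusion of the hormone binding domain of the estrogen receptor with mouse MyoD (ER-MyoD wt, at 0, 6, 12 and 24 h), the same fusion with lysines 99, 102 and 104 of MyoD mutated to a residue that cannot carry an acetyl group (ER-MyoD RRR, at 6, 12 and 24 h), or no insert (empty retrovirus, at 6, 12 and 24 h). Arrays of ER-MyoD RRR and empty retrovirus at 0 h were not analysed here. The labels do not say if replicates came from separate cultures. The p-values therefore measure only the spread among replicate arrays within groups, pooled by the fit over all 10 groups. Part or all of that spread may be technical. It is also not stated whether a culture was a clone or a pool of transduced cells.

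The 4 factors are transcription factors of the basic helix-loop-helix class that bind the E box, a short DNA motif, as dimers with E proteins. MyoD and Myf5 commit cells to the skeletal muscle lineage, myogenin (Myog) acts at the start of terminal differentiation, and Myf6 (MRF4) acts in differentiation and in mature fibres. MyoD can turn fibroblasts into muscle cells, Myog is among the genes it switches on, and its acetylation by the acetyltransferases p300 and PCAF is known to raise its activity. The estrogen receptor domain keeps the fusion inactive until hormone is given.

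The sequence shown first is the DNA upstream of Myog, the member whose level changed most, and beside it that of Chrng, the embryonic gamma subunit of the muscle acetylcholine receptor, which had one of the patterns most like that of Myog (values further on). Each line gives the 250 bases before the annotated start, in the direction of transcription, from RefSeq on GRCm38.p6. The Myog window is chr1:134289754-134290003 on the plus strand and the Chrng window is chr1:87205561-87205810 on the plus strand. Capitals mark every match, on either strand, to the E box CANNTG, to the MEF3 site TCAGGTT (the motif bound by Six4 and its relatives) and to a MEF2 site with its first or last base left free.
Myog: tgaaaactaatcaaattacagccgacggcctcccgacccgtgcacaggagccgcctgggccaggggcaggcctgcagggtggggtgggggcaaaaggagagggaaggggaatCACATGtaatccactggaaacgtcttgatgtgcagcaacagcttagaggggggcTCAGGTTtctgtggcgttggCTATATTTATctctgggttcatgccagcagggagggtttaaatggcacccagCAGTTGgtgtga
Chrng: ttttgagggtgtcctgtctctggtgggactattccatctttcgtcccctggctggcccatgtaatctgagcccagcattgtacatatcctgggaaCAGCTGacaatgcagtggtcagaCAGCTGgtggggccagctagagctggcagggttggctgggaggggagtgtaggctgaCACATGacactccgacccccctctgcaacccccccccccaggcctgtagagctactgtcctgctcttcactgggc
The Myog window held 2 E boxes, CACATG starting 138 bases and CAGTTG starting 12 bases before the start, together with 1 MEF3 site 84 bases and 1 MEF2 site 64 bases before it, and none of the 4 matches overlapped. The Chrng window held 3 E boxes and neither of the other motifs. Chrng ranked 3 by likeness to Myog, and the windows of Btbd17 and Idi2, which ranked above it, were not looked at singly. The Chrng window is thus 1 example and says nothing about genes like Myog as a set. Of 32851 promoter windows of this length, 66.2% held at least 1 E box, 31.8% at least 2 and 12.2% at least 3, while 3.5% held a MEF3 site and 7.0% a MEF2 site. These matches describe letters and not bound sites. The window given for Myf5 (chr10:107486135-107486384, minus strand) lies within the annotated span of the gene and held 0 matches to the 3 motifs. In the same annotation Myog spans bases 134290004 to 134292548 of chromosome 1 and Myod1 bases 46376474 to 46379092 of chromosome 7. Myf5 (107482908 to 107486927) and Myf6 (107492848 to 107494723) are neighbours on chromosome 10, 5920 bases apart with 0 genes between them.

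Values are deposited signal intensities on a linear scale, and the 2% trimmed mean of every array is 150. Array medians ran from 38.0 to 64.1, and a signal under the median of its array is called low here. Differences are on the scale of log2(signal + 16) after quantile normalization, ± the standard error of the limma fit with 3 arrays a group. A difference passed when its adjusted p was under 0.05 (limma, Benjamini-Hochberg over 45037 probe sets). The number of arrays limits the precision. Replicate arrays correlated at 0.926 to 0.966, and 22 of 30 arrays were closest to an array of their own group. The comparisons between constructs at one time share arrays, so they are not independent of each other. In RNA from whole cultures, fewer cells with a transcript and less transcript per cell cannot be told apart.

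Myod1, the gene that was deleted and then supplied by the fusion, was high in every fusion group and lower, but not low, in the empty-retrovirus cells. Its bright probe set gave 1299, 1105 and 1151 in the 3 arrays of ER-MyoD wt at 0 h, 1125, 753 and 814 at 6 h, 877, 1061 and 468 at 12 h, and 745, 451 and 639 at 24 h. In ER-MyoD RRR it gave 1155, 310 and 1125 at 6 h, 820, 298 and 486 at 12 h, and 306, 580 and 528 at 24 h. The empty-retrovirus arrays gave 153, 145 and 204 at 6 h, 174, 176 and 195 at 12 h, and 214, 213 and 256 at 24 h. Every fusion array lay above every empty-retrovirus array, and all 30 arrays lay above their array median. Where the probes lie relative to the deleted part of Myod1 is not given in the sources used here, so the signal in the empty-retrovirus cells checks nothing about the deletion.

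Between fusion and empty retrovirus the Myod1 difference passed at all 3 times. For ER-MyoD wt it was 2.32 ± 0.35 at 6 h (adjusted p = 3.12e-05), 2.03 ± 0.35 at 12 h (adjusted p = 0.000156) and 1.45 ± 0.35 at 24 h (adjusted p = 0.00339). For ER-MyoD RRR it was 2.10 ± 0.35 at 6 h (adjusted p = 0.000147), 1.42 ± 0.35 at 12 h (adjusted p = 0.0122) and 1.07 ± 0.35 at 24 h (adjusted p = 0.0445). The ER-MyoD RRR call at 24 h was lost without any of 5 of its 6 arrays, with an adjusted p of 0.114 to 0.172 without ER-MyoD RRR replicate 2 or 3 or empty retrovirus replicate 1 or 2, and 0.0669 without empty retrovirus replicate 3. The call at 12 h was lost without ER-MyoD RRR replicate 1 (adjusted p = 0.124) or empty retrovirus replicate 1 (adjusted p = 0.0525). The estimates were lower at each later time, but the change of the ER-MyoD wt difference from 6 to 24 h, -0.87 ± 0.50, did not pass (adjusted p = 0.388, 8.08% of probe sets called). Of 25 alternative limma fits of this change 1 passed (adjusted p = 0.0168), and 0 of the 12 with 1 array left out did. ER-MyoD wt at 24 h minus 0 h was -0.84 ± 0.35, with arrays that did not overlap, and did not pass either (adjusted p = 0.102, 20.4% of probe sets called).

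The mutant and the wild-type fusion were not separated by Myod1 signal. ER-MyoD RRR minus ER-MyoD wt was -0.22 at 6 h (95% interval -0.94 to 0.50, adjusted p = 0.867), -0.61 at 12 h (-1.33 to 0.11, adjusted p = 0.734) and -0.38 at 24 h (-1.10 to 0.35, adjusted p = 0.765). These intervals do not show equal levels, since each holds a fall by 0.94 or more on the log2 scale. Without ER-MyoD RRR replicate 2 the 6 h difference was 0.34 instead. The background of calls over all probe sets was 7.34%, 9.05% and 16.8% for ER-MyoD wt against empty retrovirus at 6, 12 and 24 h, 8.7%, 5.41% and 11.9% for ER-MyoD RRR against empty retrovirus, and 1.67%, 0.655% and 2.56% for ER-MyoD RRR against ER-MyoD wt.

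The spread of Myod1 among replicates moved with a measure of RNA quality. On each array the signal of the Actb control probe set at the 3' end of the transcript was divided by that at the 5' end; the ratio ran from 1.07 to 3.61 with a median of 1.21, and a high ratio marks RNA or target that has lost its 5' part. In 6 of the 7 fusion groups the array with the lowest Myod1 signal was the one with the highest ratio, against 1 of the 3 empty-retrovirus groups. The array with the highest ratio of all, 3.61, was ER-MyoD RRR at 6 h replicate 2, where Myod1 was 310 against 1155 and 1125. Over the 21 fusion arrays, as deviations from group means, Myod1 and the log2 ratio correlated at r = -0.948 (permutation within groups, p = 3e-05, adjusted over the 5 probe sets 0.00015) and Spearman's rho = -0.954 (permutation p = 0.0001, adjusted 0.0005). Without the 2 arrays farthest from the median ratio, r was -0.918.

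No such relation passed for the other probe sets: r was -0.358 for Myog (permutation p = 0.0329, adjusted 0.0823), 0.249 for Myf5, -0.187 for Myf6 and 0.392 for the dim Myod1 probe set, all over the same 21 arrays. With the ratio as a term in the fit, chosen after seeing the data, the standard error of the Myod1 differences fell from 0.35 to about 0.19. ER-MyoD RRR minus ER-MyoD wt then was 0.05 at 6 h (adjusted p = 0.954), -0.54 at 12 h (adjusted p = 0.274) and -0.41 at 24 h (adjusted p = 0.327). ER-MyoD RRR minus empty retrovirus at 24 h was 1.14 (adjusted p = 8.53e-05). This fit used 1 slope for all 30 arrays, while the relation above was measured over fusion arrays. In empty retrovirus only 1 of the 3 groups had its lowest Myod1 array at the highest ratio. Whether the slope holds there was not tested, so that value does not make the fragile 24 h call firm. With the term, ER-MyoD wt at 24 h minus 0 h was -0.59 (adjusted p = 0.0284), and ER-MyoD RRR at 12 h minus 6 h was -0.73 (adjusted p = 0.0306). Neither had passed in the fit without the term. The 24 h minus 0 h value also passed, without the term, with median centring (-1.11, adjusted p = 0.0352), in a fit of only those groups (-0.88, adjusted p = 0.00766), without 3 arrays that stood apart (-0.92, adjusted p = 0.047) and without the array of highest ratio in each group (-0.63, adjusted p = 0.0414).

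**Figure D1:**
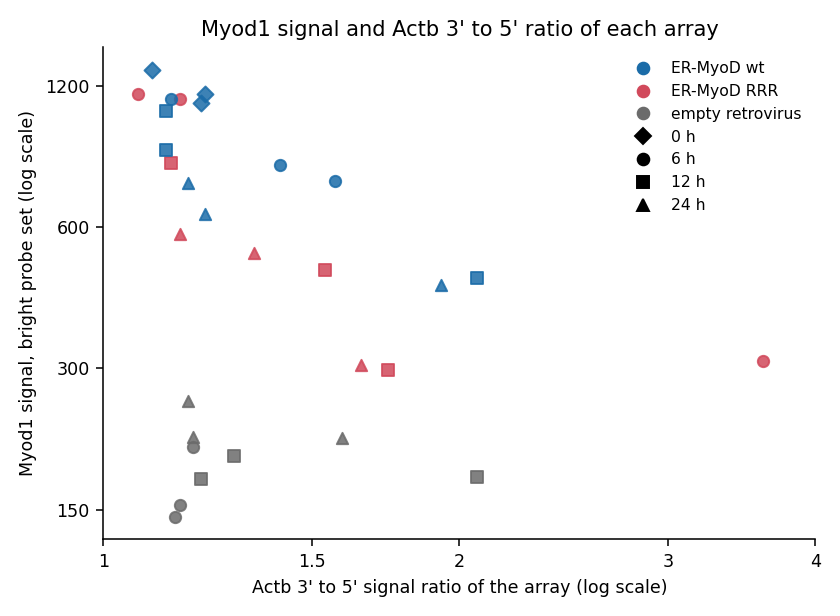
Myod1 signal of the bright probe set (vertical, log scale) against the Actb 3' to 5' signal ratio of the same array (horizontal, log scale), 1 point per array, coloured by construct and shaped by time. Among fusion arrays of one group the lower Myod1 signals lie at higher ratios (r = -0.948 over 21 arrays as deviations from group means); empty-retrovirus arrays lie below all fusion arrays.

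The dim Myod1 probe set was low on all 30 arrays, from 0.859 to 42.1, and its group means ran from 11.3 to 28.7. The suffix x in its name marks a probe set whose probes may match other transcripts. It passed in none of the 9 comparisons between constructs. Its largest difference there was 0.87 ± 0.35 for ER-MyoD wt minus empty retrovirus at 6 h (adjusted p = 0.164), and its group means correlated with those of the bright one at 0.477 over the 10 groups. Its differences of fusion from empty retrovirus ran from 0.03 to 0.87 on the log2 scale, above 0 as in the bright one. The smallest, for ER-MyoD wt at 12 h, went the other way in mean signal (12.4 against 14.1). Under the alternatives it ran from -0.25 to 0.21, so no shared direction can be read from such low signals. The calls of the bright probe set were not repeated by the dim one, and statements on Myod1 rest on the bright one alone.

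Myf5, the other deleted gene, gave a clear signal in every group and was lower with ER-MyoD RRR than with empty retrovirus at 6 and 12 h. It gave 375, 458 and 305 in ER-MyoD wt at 0 h, 479, 355 and 534 at 6 h, 304, 214 and 401 at 12 h, and 479, 500 and 291 at 24 h. ER-MyoD RRR gave 213, 204 and 185 at 6 h, 152, 199 and 288 at 12 h, and 201, 254 and 412 at 24 h. Empty retrovirus gave 432, 393 and 501 at 6 h, 324, 703 and 456 at 12 h, and 388, 597 and 335 at 24 h. All 30 values lay above the array median, and as for Myod1 the position of the probes relative to the deletion is not given in the sources used here. The 3 ER-MyoD RRR arrays at 6 h lay below all arrays of ER-MyoD wt and of empty retrovirus at that time.

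Against empty retrovirus, the Myf5 difference of ER-MyoD RRR was -0.99 ± 0.28 at 6 h (adjusted p = 0.0264) and -1.11 ± 0.28 at 12 h (adjusted p = 0.0152), and the value at 24 h was -0.59 ± 0.28 (adjusted p = 0.209). Against ER-MyoD wt it was -0.9965 ± 0.28 at 6 h (95% interval -1.58 to -0.41, adjusted p = 0.0702), -0.49 ± 0.28 at 12 h (adjusted p = 0.738) and -0.56 ± 0.28 at 24 h (adjusted p = 0.431). ER-MyoD wt and empty retrovirus differed by 0.01, -0.63 and -0.03 at 6, 12 and 24 h, with adjusted p of 0.993, 0.213 and 0.967. Within a construct no step in time passed for Myf5. The 6 h call against empty retrovirus was lost without ER-MyoD RRR replicate 1 (adjusted p = 0.056), 2 (0.0503) or 3 (0.0851) or empty retrovirus replicate 1 (0.0704) or 3 (0.105). The 12 h call was lost without ER-MyoD RRR replicate 1 (0.12) or empty retrovirus replicate 2 (0.123), and centring each array on its median ended both calls (0.0916 and 0.112).

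Myog, the marker of terminal differentiation among the 4, started low and rose steeply with both fusions but not with empty retrovirus. In ER-MyoD wt it gave 13.7, 3.38 and 5.90 at 0 h, 37.2, 25.5 and 10.5 at 6 h, 669, 562 and 609 at 12 h, and 6196, 6079 and 6063 at 24 h. In ER-MyoD RRR it gave 9.07, 7.66 and 11.7 at 6 h, 161, 128 and 185 at 12 h, and 3578, 3594 and 4480 at 24 h. In empty retrovirus it gave 12.0, 13.6 and 6.62 at 6 h, 10.7, 7.08 and 3.71 at 12 h, and 16.7, 12.9 and 15.4 at 24 h. The 18 arrays of 0 h, 6 h and empty retrovirus were all under the array median. The 12 fusion arrays of 12 and 24 h were above it and fell into 4 groups that did not overlap, in the order ER-MyoD wt 24 h, ER-MyoD RRR 24 h, ER-MyoD wt 12 h and ER-MyoD RRR 12 h. The groups below these overlapped their neighbours in the order.

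**Figure D2:**
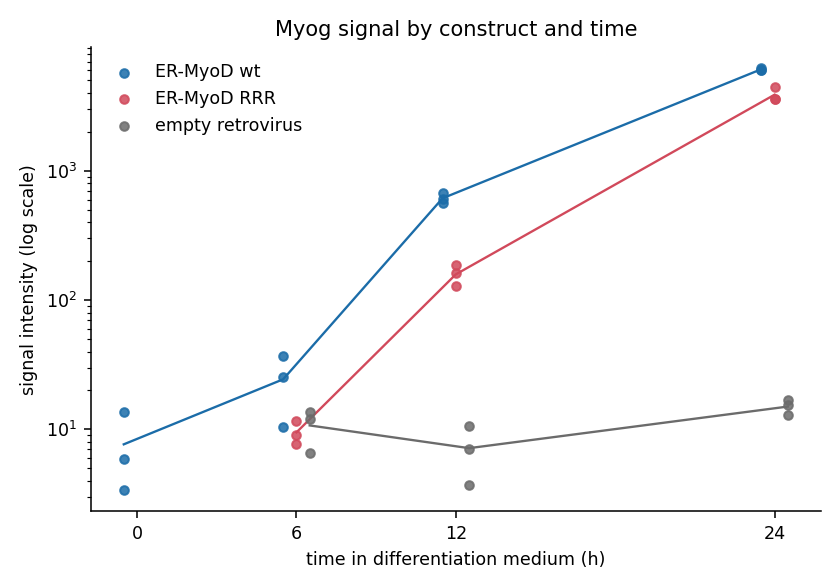
Myog signal intensity (log scale) against time in differentiation medium in hours, 1 point per array and lines through group means, by construct. Both fusions rise between 6 and 24 h, ER-MyoD RRR lies below ER-MyoD wt at 12 h (127.8 to 185.2 against 562.1 to 668.7), and empty retrovirus stays under 17.

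The mean Myog signal of ER-MyoD wt was 613 ± 53.4 (SD, n = 3) at 12 h against 7.15 ± 3.48 in empty retrovirus, a log2 difference of 4.82 ± 0.22 (adjusted p = 2.24e-15). At 24 h it was 6113 ± 72.8 against 15.0 ± 1.94, a difference of 7.64 ± 0.22 (adjusted p = 9.57e-20). ER-MyoD RRR minus empty retrovirus was 2.98 ± 0.22 at 12 h (adjusted p = 1.22e-10) and 7.10 ± 0.22 at 24 h (adjusted p = 6.55e-19). Because the empty-retrovirus signals are low, these sizes depend on the constant added before the logarithm: the 24 h difference of ER-MyoD wt was 8.67 with 1 and 6.26 with 64 added, and the 12 h difference of ER-MyoD RRR was 4.55 and 1.67. With 1, 16 or 64 added, Myog at 24 h ranked between 4 and 7 by rise among 45037 probe sets in each of the fusions against empty retrovirus.

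At 6 h the difference of Myog from empty retrovirus passed for neither fusion. For ER-MyoD wt it was 0.68 ± 0.22 (adjusted p = 0.0601) and for ER-MyoD RRR it was 0.02 ± 0.22 (adjusted p = 0.974). ER-MyoD wt at 6 h against 0 h was 0.76 ± 0.22 (adjusted p = 0.0228) with arrays that overlapped, where 10.5% of probe sets were called. That call was lost without ER-MyoD wt 6 h replicate 1 (adjusted p = 0.226) or 2 (0.0522) or 0 h replicate 2 (0.132) or 3 (0.0895). It was also lost with 64 added before the logarithm (0.31, adjusted p = 0.124), while with 1 added the value was 1.55 (adjusted p = 0.00948). Leaving out the lowest 6 h array, replicate 3, gave 0.95 against empty retrovirus (adjusted p = 0.00631). The signals behind all of these values are under the array median.

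Myog rose in both steps, from 6 to 12 h and from 12 to 24 h, with each of the fusions. In ER-MyoD wt the log2 rise was 3.92 ± 0.22 from 6 to 12 h (adjusted p = 4.53e-12) and 3.24 ± 0.22 from 12 to 24 h (adjusted p = 1.11e-11), where mean signal grew 9.97-fold. In ER-MyoD RRR it was 2.73 ± 0.22 from 6 to 12 h (adjusted p = 1.57e-08) and 4.54 ± 0.22 from 12 to 24 h (adjusted p = 5.38e-14), where mean signal grew 24.6-fold. Because the 6 h signals are under the array median, the size of the 6 to 12 h rise depends on the constant added: it was 4.61 with 1 and 2.89 with 64 in ER-MyoD wt, and 3.85 with 1 and 1.58 with 64 in ER-MyoD RRR, and it passed in each case. For this step 1.09% of probe sets were called in ER-MyoD wt and 2.5% in ER-MyoD RRR. For the 12 to 24 h step 9.9% and 8.81% were called. In empty retrovirus Myog moved by -0.22 ± 0.22 and 0.42 ± 0.22 over the same steps (adjusted p = 0.943 and 0.338), where 0.0799% and 6.86% of probe sets were called.

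The mutant reached less Myog than the wild type at 12 h. Mean signal was 158 ± 28.8 against 613 ± 53.4 (SD, n = 3), 25.8% of the wild-type value, and the log2 difference was -1.84 ± 0.22 (95% interval -2.29 to -1.39, adjusted p = 1.44e-05). It passed under all 19 alternatives tried, from -1.945 to -1.593. At 24 h the mutant was at 63.5% of the wild type, 3884 ± 516 against 6113 ± 72.8, with arrays that did not overlap, and the difference of -0.54 ± 0.22 (-0.99 to -0.08) did not pass (adjusted p = 0.272). It passed with 64 added before the logarithm (-0.53, adjusted p = 0.015). At 6 h the difference was -0.66 ± 0.22 (adjusted p = 0.145), with both groups under the array median. It was -1.18 with 1 and -0.28 with 64 added (adjusted p = 0.149 and 0.32), and without ER-MyoD wt replicate 3 it was -0.93 (adjusted p = 0.0384).

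Whether the gap itself changed with time was tested as an interaction, and the call depended on the constant added before the logarithm. The gap between mutant and wild type changed by -1.18 ± 0.31 from 6 to 12 h (limma, adjusted p = 0.176) and by 1.30 ± 0.31 from 12 to 24 h (limma, adjusted p = 0.123), and neither passed. With 64 added both passed, at -1.31 (adjusted p = 0.00251) and 1.062 (adjusted p = 0.00657), and with 1 added neither did (-0.7528 and 1.397, adjusted p = 0.757 and 0.632). The 12 to 24 h change also passed in a fit of only the groups compared (1.28, adjusted p = 0.038). The shares of all probe sets called in these tests were 0.0577% and 0.091%. Set against an earlier wild-type time, ER-MyoD RRR at 12 h stood 2.08 ± 0.22 above ER-MyoD wt at 6 h (adjusted p = 2.08e-06, 0.759% of probe sets called), and ER-MyoD RRR at 24 h stood 2.70 ± 0.22 above ER-MyoD wt at 12 h (adjusted p = 7.17e-10, 9.06% called). In those comparisons construct and time differ together.

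Myf6, the late factor, stayed low in every group. Its 30 signals ran from 4.35 to 46.9, with 29 under the array median, and group means ran from 9.62 in ER-MyoD wt at 0 h to 26.3 in empty retrovirus at 12 h. At each time the arrays of the 3 constructs overlapped. None of the 9 comparisons between constructs passed, and neither did any step in time. For ER-MyoD wt minus empty retrovirus the 24 h value was -0.33 (95% interval -1.19 to 0.52, adjusted p = 0.7), and ER-MyoD RRR minus ER-MyoD wt was 0.28 (-0.58 to 1.13, adjusted p = 0.884). Such low signals do not show that the transcript is absent, and a fall or a small rise in Myf6 could go undetected at this signal. Myog, from similarly low signals, passed against empty retrovirus at 12 and 24 h.

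**Figure D3:**
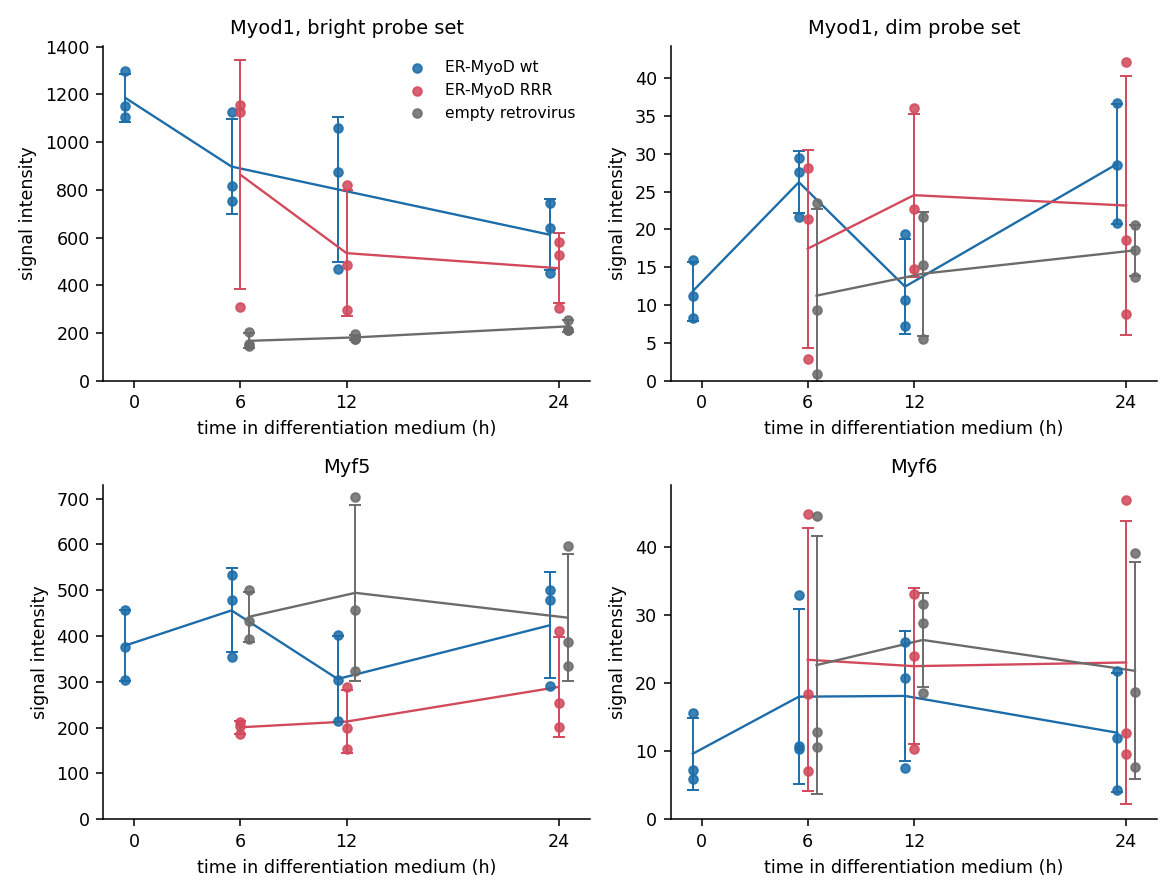
Signal intensity of the other 4 probe sets (linear axes from 0) against time in differentiation medium in hours: points are arrays, lines join group means and bars are ± SD with n = 3. The bright Myod1 probe set separates fusion from empty retrovirus, Myf5 of ER-MyoD RRR at 6 h (185 to 213) lies below the other constructs, and the dim Myod1 probe set and Myf6 do not exceed 47.

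Counted over the 5 probe sets, ER-MyoD wt and empty retrovirus differed in 1 at 6 h (Myod1), and in 2 at 12 h and 2 at 24 h (Myod1 and Myog). Over all probe sets 7.34%, 9.05% and 16.8% were called at these times. ER-MyoD RRR and empty retrovirus differed in 2 at 6 h (Myod1 and Myf5), 3 at 12 h (those and Myog) and 2 at 24 h (Myod1 and Myog), beside 8.7%, 5.41% and 11.9% of all probe sets. ER-MyoD RRR and ER-MyoD wt differed in 0 at 6 h, 1 at 12 h (Myog) and 0 at 24 h, beside 1.67%, 0.655% and 2.56%. In the limma fit 2 of the probe sets had an unadjusted p under 0.05 in the latter comparison at 6 h (Myf5 and Myog) and 1 at 24 h (Myog). The share of all probe sets with such an unadjusted p was not counted, so these numbers have no background.

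**Figure D4:**
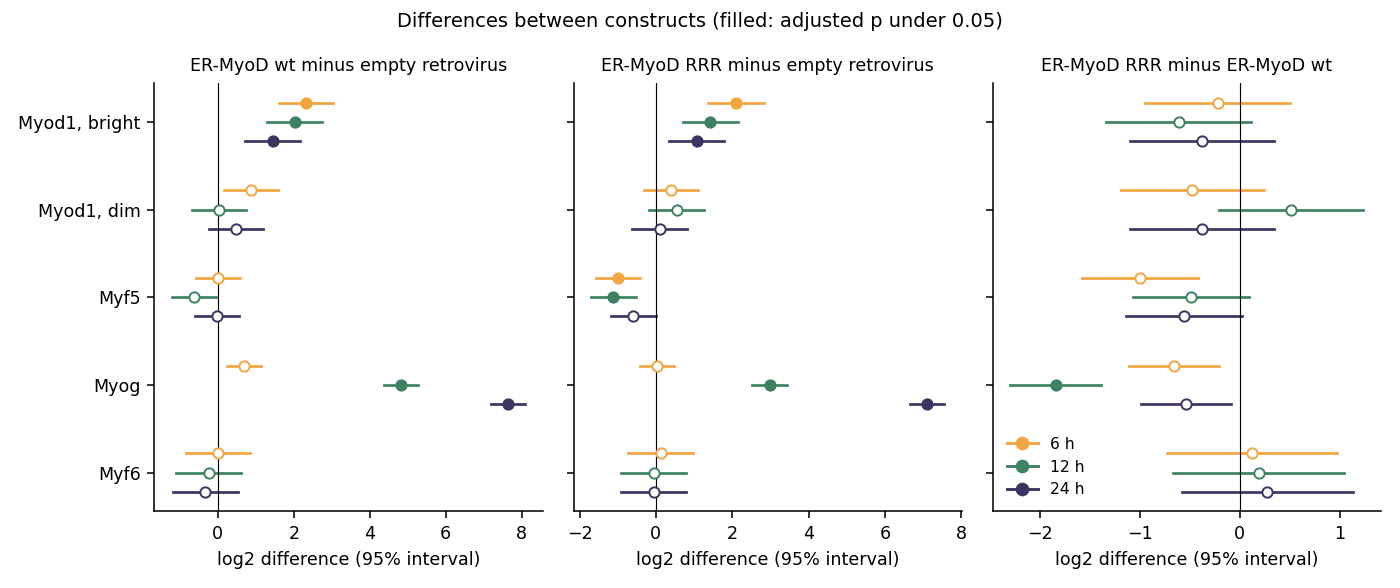
Log2 differences between constructs with 95% intervals (horizontal) for the 5 probe sets (rows) at 6, 12 and 24 h (colours), each panel on its own horizontal scale; filled points have an adjusted p under 0.05. The bright Myod1 probe set is above 0 for both fusions against empty retrovirus, Myog reaches 7.64 and 7.10 there at 24 h, and the filled point between the fusions is Myog at 12 h (-1.84).

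The partners and regulators of these factors were read from lists of genes, each gene by its brightest probe set. Of the 3 E proteins, Tcf3 (E2A) fell in ER-MyoD wt against empty retrovirus at all 3 times, by 0.93 at 6 h (adjusted p = 0.00244), 0.79 at 12 h (0.00821) and 0.97 at 24 h (0.000625), from a mean signal of 923 to 987 in empty retrovirus. With arrays centred on their medians the calls at 6 and 12 h were lost (-0.61 and -0.56, adjusted p = 0.182 and 0.226). Tcf12 (HEB) rose by 0.57 at 12 h (0.00533) and 0.52 at 24 h (0.00736). Tcf4 did not pass (-0.47, -0.72 and -0.58). Between the 2 fusions 0 of 3 E proteins passed at any time in limma, and none had an adjusted p under 0.248. Over all genes 2.51%, 1.16% and 4.14% were called there at 6, 12 and 24 h. With 3 genes, 0 calls are near these shares and say nothing about the list.

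The 13 inhibitors of myogenic factors moved in both directions. In ER-MyoD wt against empty retrovirus 6 were higher and 0 lower at 6 h, 4 higher and 3 lower at 12 h, and 4 higher and 3 lower at 24 h, where 11.1%, 13.8% and 23.6% of 18193 genes were called. Hey1, a Notch target and repressor, went from 17.5 to 229 at 12 h (3.003 ± 0.26, adjusted p = 1.93e-09). Twist2, a repressor of MyoD, was 916 in empty retrovirus and 241 in ER-MyoD wt at 24 h (-1.93 ± 0.15, adjusted p = 6.12e-11). Id2, a partner that blocks E proteins from binding DNA, was higher in ER-MyoD wt than in empty retrovirus at 6 h, 828 against 50.3 (3.81 ± 0.40, adjusted p = 6.53e-08).

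Between the fusions, Twist2 and Id3 stood higher in the mutant. Id3, of the same inhibitor family as Id2, was at 355 in ER-MyoD RRR against 146 in ER-MyoD wt at 6 h (1.14 ± 0.19, adjusted p = 0.00129), 260 against 96.4 at 12 h (1.24 ± 0.19, adjusted p = 0.000523) and 180 against 82.9 at 24 h (0.95 ± 0.19, adjusted p = 0.00409). Twist2 was at 1815 against 782 at 6 h (1.17 ± 0.15, adjusted p = 4.68e-05) and at 655 against 241 at 24 h (1.42 ± 0.15, adjusted p = 8.58e-07), and its 12 h value of 0.52 did not pass (adjusted p = 0.131). In all 2 of 13 were higher and 1 lower (Zeb1, -0.45, adjusted p = 0.0484) at 6 h, 1 higher and 0 lower at 12 h, and 2 higher and 0 lower at 24 h, beside 2.51%, 1.16% and 4.14% of genes called. With median centring Zeb1 did not pass (-0.50, adjusted p = 0.129). From 0 h, Id3 in ER-MyoD wt fell from 1259 to 146, 96.4 and 82.9.

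Of the 4 MEF2 factors, which act with the myogenic factors on muscle genes, Mef2a and Mef2d rose in ER-MyoD wt against empty retrovirus from 6 h and Mef2c from 24 h. On the values as deposited, Mef2d did not pass at 6 h (0.46, adjusted p = 0.0553) and Mef2c was lower there (-0.75, adjusted p = 0.0218). Mef2a was 1205 against 331 at 6 h (1.76 ± 0.25, adjusted p = 1.47e-05) and 4484 against 347 at 24 h (3.66 ± 0.25, adjusted p = 8.37e-12). In the mutant Mef2a was 458 at 6 h, a difference of -1.29 ± 0.25 from ER-MyoD wt (adjusted p = 0.00613), and no MEF2 factor passed between the fusions at 12 or 24 h (Mef2a -0.34 and -0.28, adjusted p = 0.857 and 0.759). Of 7 measured upstream regulators Six4, a homeodomain factor, rose in ER-MyoD wt at all 3 times (0.94, 1.18 and 2.38), and Pax3 was lower at 24 h (-1.09, adjusted p = 0.01). Between the fusions only Pax3 at 24 h passed among the 7, higher in the mutant (1.10, adjusted p = 0.0438), and it did not pass with median centring (0.99, adjusted p = 0.137). Over all genes 2.51%, 1.16% and 4.14% were called between the fusions at 6, 12 and 24 h. For ER-MyoD wt against empty retrovirus the shares were 11.1%, 13.8% and 23.6%. So few calls in lists of 4 and 7 genes describe single genes and not the lists.

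Among 12 measured cofactors of MyoD, Smarcd3, the BAF60c subunit of the SWI/SNF remodelling complex, rose with both fusions and less with the mutant. It was 670 in ER-MyoD wt, 375 in ER-MyoD RRR and 245 in empty retrovirus at 12 h, and 1307, 665 and 323 at 24 h. ER-MyoD RRR minus ER-MyoD wt was -0.81 ± 0.17 at 12 h (adjusted p = 0.0127) and -0.90 ± 0.17 at 24 h (adjusted p = 0.00172). The 12 h call was lost with arrays centred on their medians (-0.79, adjusted p = 0.131). Hdac1, a deacetylase, was higher in the mutant at 24 h (0.44 ± 0.12, adjusted p = 0.0373), a call lost on the values as deposited (0.37, adjusted p = 0.0842) and with median centring (0.24, adjusted p = 0.558). The acetyltransferase genes Ep300, Crebbp and Kat2b did not pass between the fusions at any of the 3 times. Of the 12 cofactors 0 passed at 6 h, 1 was lower at 12 h, and 1 was higher and 1 lower at 24 h. Over all genes 2.51%, 1.16% and 4.14% were called at these times.

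Known muscle targets of the factors rose with the fusions, and some passed at 6 h, where Myog did not. Of 28 target genes in ER-MyoD wt against empty retrovirus, 13 were higher at 6 h, 16 at 12 h and 26 at 24 h, with 0 lower, beside 5.85%, 6.49% and 10.5% of genes called higher, and their median log2 differences were 0.78, 1.26 and 3.60 against -0.01, -0.02 and 0.03 over all genes. Mymk (myomaker, a membrane protein of myoblast fusion) was at 1010 against 7.75 at 6 h (5.41 ± 0.26, adjusted p = 8.44e-15), when Myog was at 24.4. Cdh15 (M-cadherin) was at 775 against 91.7 (2.90 ± 0.17, adjusted p = 7.01e-13) and Gadd45g, a growth arrest gene, at 1299 against 163 (2.86 ± 0.14, adjusted p = 1.08e-14). The list was drawn up with earlier results of these arrays known, so its direction is not independent evidence.

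In the mutant 10, 12 and 26 of the 28 target genes were higher than in empty retrovirus at 6, 12 and 24 h, and 0 were lower, beside 6.35%, 4.4% and 7.6% of genes called higher. Against ER-MyoD wt 5, 8 and 6 were lower and 0 higher, beside 1.5%, 0.649% and 1.45% of genes called lower, with medians of -0.34, -0.62 and -0.68 against 0.05, 0.01 and 0.00 over all genes. With arrays centred on their medians the 12 h count was 5. Mymk was at 215 against 1010 at 6 h (-2.10 ± 0.26, adjusted p = 3.07e-05) and 1223 against 3495 at 12 h (-1.53 ± 0.26, adjusted p = 0.00153), and Hes6, a cofactor that promotes myogenesis, at 189 against 427 at 12 h (-1.12 ± 0.17, adjusted p = 0.000322). At 24 h the smallest p belonged to Chrnd, the receptor's delta subunit, at 102 against 229 (-1.31 ± 0.27, adjusted p = 0.00507). Gadd45g at 6 h was 1250 in the mutant, 2.82 above empty retrovirus (adjusted p = 2.95e-14).

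**Figure D5:**
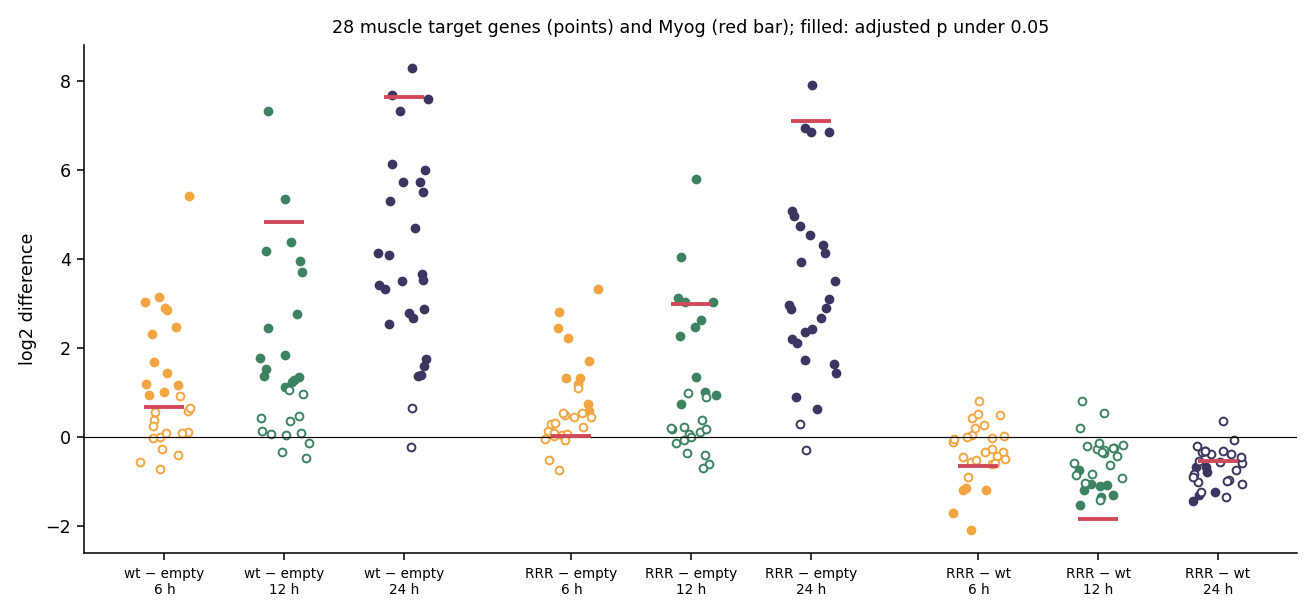
Log2 differences of 28 muscle target genes (points, spread sideways at random) and of Myog (red bar) in the 9 comparisons between constructs; filled points have an adjusted p under 0.05. At 6 h Myog (0.68 for ER-MyoD wt minus empty retrovirus) lies below the leading targets, at 24 h it lies among the highest, and at 12 h its value for ER-MyoD RRR against ER-MyoD wt (-1.84) is below all 28.

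Markers of fibroblasts, the labelled cell type, were present in every array, with sums over 12 genes from 34460 to 79530. At 24 h 10 of 12 were lower in ER-MyoD wt than in empty retrovirus (median -1.33, 13.1% of genes called lower), and 8 of 12 were higher in ER-MyoD RRR than in ER-MyoD wt (median 0.67, 2.69% of genes called higher). From 12 to 24 h 8 of 12 were higher in empty retrovirus itself (median 0.84, 4.89% of genes called higher), and in ER-MyoD wt 3 were higher and 3 lower (median 0.20, 15.2% of genes called). For the 24 h comparisons without quantile normalization the counts were 8 and 4, and with median centring 7 and 2. Summed over 5 genes, endothelial markers ran from 70.4 to 265, blood and macrophage markers from 258 to 798, epithelial markers from 166 to 734 and neural markers from 155 to 329. Of the 5 blood markers 1 was higher in ER-MyoD wt than in empty retrovirus at 12 h and 4 did not pass (median 0.35). Over all genes 6.49% were called higher in that comparison. The 1 marker was Csf1r, at 493 in ER-MyoD wt against 128 (1.86 ± 0.19, adjusted p = 4.31e-08). The part of these markers in the differences of Myog and its targets was not tested.

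The genes with the group means most like those of Myog, by Pearson correlation over the 10 groups among 8109 genes that spanned at least 1 on the log2 scale, were Btbd17 (0.997), Idi2 (0.996), Chrng (0.994), Ralgps2 (0.986) and Myh1, a fast myosin heavy chain (0.984). Chrng group means ran from 5.87 to 4676 and Idi2 from 1.94 to 1250. The Myh1 probe set has the suffix x, so its probes may match other transcripts, and its means ran from 22.6 to 164.6. For the bright Myod1 probe set they were Igfbp7 (0.979), Rab3ip (0.976), Csrp1 (0.970), Sh3kbp1 (0.965) and 2310022B05Rik (0.960), with Igfbp7 means from 333 to 5683. For Myf5 they were N4bp2l2 (0.885), Thsd7a (0.857), 1110002L01Rik (0.833), Tmem45b (0.824) and A930013F10Rik (0.820), most of them dim, with means from 4.14 to 32.1 for N4bp2l2. These are descriptions over 10 means that share the same arrays, and Myf6 and the dim Myod1 probe set spanned less than 1 and were not matched. Among the members themselves the correlation over group means was 0.258 between Myod1 and Myog, -0.384 between Myod1 and Myf5 and -0.230 between Myf5 and Myog.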

How the data were processed

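The deposited values were 1 signal intensity per probe set and array on a linear scale, from 0.0474 to 20986; the 2% trimmed mean of each array was 150, so the authors had scaled them before deposit. The software is not given in the sources used here. The arrays held 45101 probe sets, of which 64 are controls and were not tested. In the platform annotation 34945 of the rest had 1 symbol, 932 had several and 9160 had none here, and updating through gene IDs changed 0 symbols.

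Values entered as log2(signal + 16) after quantile normalization, without a filter on low values. limma 3.58.1 in R 4.3.3 (lmFit, eBayes with trend) fitted 1 mean per group to all 30 arrays (20 residual degrees of freedom); tests were two-sided, with Benjamini-Hochberg adjustment over 45037 probe sets within a comparison and a threshold of 0.05. Lists used 1 probe set per gene, the brightest of those with 1 symbol (18193 genes), with the adjusted p of the same fit. The script was tested on simulated data.

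Named genes were the members, up to 3 genes of each list with the smallest p in a comparison, and the 5 genes with group means most like each member that spanned at least 1. Other genes of the lists, such as Ep300, Crebbp and Kat2b, the 12 h value of Twist2 and values of a named gene in further comparisons, were added after their values were seen. The members and the lists were chosen with earlier results of these data known. Alternatives were other pseudocounts (1 and 64), scalings, a filter, no trend, a replicate block, array weights, fewer arrays and, added after seeing the data, the Actb ratio. No 2 arrays held identical values. Files were read with the R package data.table (version 1.17.8); figures used Python 3.11.15 with pandas 2.3.3 and matplotlib 3.10.9.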

Additional observations from a re-analysis of the deposited data

Results flagged for a closer look

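The Myog difference between ER-MyoD wt and empty retrovirus grew with time, by a test of the change itself (limma interaction terms, 3 arrays a group). From 6 to 12 h it grew by 4.14 ± 0.31 on the log2 scale (adjusted p = 1.07e-08), where 0.266% of probe sets were called. From 12 to 24 h it grew by 2.82 ± 0.31 (adjusted p = 5.61e-07), where 4.98% were called. From 6 to 24 h the growth was 6.96 ± 0.31 (adjusted p = 2.8e-14), where 8.08% were called. The 6 h and empty-retrovirus signals are under the array median, so the sizes depend on the constant added before the logarithm: with 1 and 64 added they were 5.23 and 2.97 from 6 to 12 h, 2.18 and 2.997 from 12 to 24 h, and 7.41 and 5.965 from 6 to 24 h, and each passed.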

How the results depend on the processing

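Over the 45 differences between constructs (5 probe sets, 9 comparisons), 828 alternative values were computed. Of these, 788 kept their side of the threshold, with the same direction or a change of sign smaller than the standard error. A further 23 lost a call and 12 gained one. Another 5 changed sign by a larger move without passing in either fit, and 0 changed sign with a call in either. The cause was not tested. With 64 added before the logarithm, Myog in ER-MyoD RRR minus ER-MyoD wt at 24 h passed (-0.53) and Myod1 in ER-MyoD RRR minus empty retrovirus at 24 h did not (0.94); the latter also did not pass on values as deposited (0.95), with median centring (0.87) or without the trend (1.07). Myf5 in ER-MyoD RRR minus ER-MyoD wt at 6 h passed as deposited (-1.11, adjusted p = 0.0333), with a filter on dim probe sets (-0.9965), with array weights (-1.05), with 1 probe set per gene (-0.9965) and with the Actb ratio as covariate (-1.09). Myf5 in ER-MyoD RRR minus empty retrovirus did not pass with median centring at 6 h (-0.92) or 12 h (-0.95), without the array of the highest Actb ratio in each group (-0.90 and -0.83), or, at 12 h, in a fit of only the groups compared (-1.10). At 6 h, Myog in ER-MyoD wt against empty retrovirus passed with the filter (0.68), 1 probe set per gene (0.68) and the Actb covariate (0.72), and with the replicate block (0.68, adjusted p = 0.0495); the block changed no other call between constructs. Replicate numbers were not taken as pairs, since same-numbered arrays of different groups deviated together at correlations of -0.142 to 0.217 (median 0.0208). By deviation, however, 20 of 30 arrays were closest to an array of their own number, in a search over the other groups. There 1 array in 3 carries that number, so 20 of 30 is more than an even draw would give. Whether same-numbered arrays share a batch was not tested, and the main fit ignores the number. Myod1 in ER-MyoD RRR minus ER-MyoD wt at 6 h moved to 0.34 without the 3 arrays apart (ER-MyoD RRR 6 h 2, empty retrovirus 12 h 1 and ER-MyoD wt 24 h 3), and to 0.25 without the arrays of highest Actb ratio, where Myf6 at 12 h moved to -0.24 and the dim Myod1 probe set at 24 h to 0.10. Leaving out 1 array at a time gave ranges of 1.07 to 1.75 (Myod1, ER-MyoD RRR minus empty retrovirus, 12 h), 0.90 to 1.37 (24 h), -0.52 to 0.34 (Myod1, ER-MyoD RRR minus ER-MyoD wt, 6 h), -1.08 to -0.88 and -1.37 to -0.85 (Myf5, ER-MyoD RRR minus empty retrovirus, 6 and 12 h), 0.40 to 0.95 (Myog, ER-MyoD wt minus empty retrovirus, 6 h) and -0.93 to -0.37 (Myog, ER-MyoD RRR minus ER-MyoD wt, 6 h).

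Counts of all probe sets called moved more. ER-MyoD RRR minus ER-MyoD wt at 6 h had 752, with 331 after median centring, 455 without the trend, 42 in a fit of only those groups and 1270 with the Actb covariate. At 12 h it had 295, with 130, 188, 103 and 490 under the same settings, 573 with array weights, 507 without the 3 arrays and 146 without the highest Actb ratios. At 24 h it had 1154, with 512 after median centring, 435 in a fit of only those groups and 711 without the highest Actb ratios. In fits of only the groups compared, ER-MyoD wt minus empty retrovirus at 12 h fell from 4074 to 2463, and ER-MyoD RRR minus empty retrovirus from 3917 to 1820 at 6 h and from 2435 to 1339 at 12 h. Median centring moved the share of calls that were higher from 52.5% to 71.3% and 49.2% to 64.1% (ER-MyoD wt minus empty retrovirus, 6 and 12 h), from 34.8% to 17.8% and 61.4% to 36.9% (ER-MyoD RRR minus ER-MyoD wt, 6 and 24 h), and from 46.5% to 59.5%, 53.4% to 74.6% and 43.2% to 33% (ER-MyoD RRR minus empty retrovirus, 6, 12 and 24 h). It shifted the median of all probe sets by 0.106 for ER-MyoD wt against empty retrovirus at 6 h and by 0.111 in ER-MyoD RRR minus empty retrovirus at 12 h. Signals under the array median (Myf6, the dim Myod1 probe set, Myog before 12 h) limit what could be detected.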
